A study of Mus musculus with 2 samples.

Results

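The genes described here are the 10 MHC class II presentation genes H2-Aa, H2-Ab1, H2-Eb1, Cd74, Ciita, H2-DMa, H2-DMb1, H2-DMb2, H2-Oa and H2-Ob, taken by symbol from the 33696 genes counted. They were followed in single cells of the dura mater of female mice, in a JVL-14 library made 14 days after jugular venous ligature and in a sham library made after sham surgery. The strain, the age, the number of mice and the time since sham surgery are not given in the sources used here. Dura was peeled from skullcaps, digested and combined from 2 meninges per well, and viable singlets were sorted, with 20000 cells loaded for droplet-based 3' RNA sequencing. With 1 library in each of the 2 groups, the comparisons below carry no p-value. Effects of the surgery cannot be told apart from differences in mice, dissection or library preparation.

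MHC class II molecules show peptides from endocytosed material to CD4+ T cells, mainly on macrophages, dendritic cells and B cells. Their alpha and beta chains assemble around the invariant chain Cd74, which keeps the groove occupied until it is degraded in the endosome. The DM heterodimer then exchanges the remaining invariant chain fragment for peptide, and the DO heterodimer restrains DM. Ciita is the transactivator that switches these genes on. In the dura, class II-bearing macrophages and dendritic cells lie along the venous sinuses, where they sample antigen.

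Stretches of promoter are shown because class II genes are known for a common control region, and because close copies among them differed in where they were measured. A Y box, bound by NF-Y, and an X box, bound by RFX proteins, form the platform to which Ciita is recruited. RefSeq promoter windows of GRCm38.p6, reaching from 250 bases before to 50 bases after the start, were held for 7 of the 10 genes and were absent for H2-Ab1, Cd74 and Ciita. GATTGG, taken as the Y box, was present in a window of 7 of these 7 genes and in 16.1% of 32851 promoter windows, read on both strands. CTNGNAAC, taken as the X box, was present for 4 of the 7 genes and in 13.2% of windows. Both together on 1 strand, with the second starting 25 to 40 bases after the first, were found for the same 4 genes and in 25 of 32851 windows (0.0761%), which are a subset of the windows with each motif. The letters and the spacing were chosen after these promoters had been read. In the stretches below, written 5′ to 3′ on the gene's own strand, capitals mark these motifs. The last stretch, of H2-DMb2, holds the Y box but no exact match to CTNGNAAC, and is shown beside that of H2-DMb1, its close copy. Where H2-DMb1 has its X box, H2-DMb2 reads ctattaac, with t in place of the G of the motif. Whether this works as an X box was not tested.
H2-Aa, chr17:34287862-34287912, minus strand: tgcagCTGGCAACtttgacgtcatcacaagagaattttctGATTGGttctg
H2-Eb1, chr17:34305768-34305817, plus strand: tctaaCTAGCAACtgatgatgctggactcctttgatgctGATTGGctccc
H2-Ob, chr17:34238810-34238857, plus strand: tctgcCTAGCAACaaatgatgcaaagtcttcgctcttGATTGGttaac
H2-DMb1, chr17:34153089-34153139, plus strand: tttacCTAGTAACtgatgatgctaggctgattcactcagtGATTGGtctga
H2-DMb2, chr17:34145122-34145168, plus strand: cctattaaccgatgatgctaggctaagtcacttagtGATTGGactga
The Y box began 44 to 91 bases before the start, except in H2-DMa, where 1 of 2 windows held it 199 bases before the start. In H2-Aa, H2-Eb1, H2-DMb1 and H2-Ob the X box preceded it by 32 to 35 bases.

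The files hold whole-number counts of unique molecular identifiers (UMIs), each standing for 1 captured transcript end. The JVL-14 library had 18796260 UMIs in 3004 barcodes, and the sham library had 33996641 UMIs in 5495 barcodes. After filters, 2471 JVL-14 and 4672 sham cells remained, with medians of 4530 and 4502.5 UMIs. Of the retained barcodes, 1 was present in both libraries. Cells were clustered without the 10 genes, and 31 of 36 clusters were named from marker genes, so each class below, such as the fibroblasts, is fibroblast-like or otherwise like the type it is named for. The libraries also held cells that are no part of the dura, in unequal numbers, with 190 JVL-14 and 178 sham olfactory-type neurons, 3 JVL-14 and 249 sham muscle cells, and 0 JVL-14 and 80 sham choroid plexus cells. Levels are UMIs per 1000000 UMIs of a class (CPM). They were not divided by transcript length, since 3' counting takes 1 tag per molecule. Brackets hold 95% intervals for counting error alone, which are too narrow where few cells carry many of the UMIs.

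Class II transcripts were concentrated in dendritic cells, macrophages, B cells and monocytes. The 10 genes together made up 6.35% of all UMIs in JVL-14 dendritic cells and 6.05% in sham dendritic cells. In macrophages they made up 5.31% in JVL-14 and 4.68% in sham. B cells followed with 1.90% in JVL-14 and 2.04% in sham, and monocytes with 1.51% in JVL-14 and 1.32% in sham, where 5 cells held 77.3% of the class II UMIs in JVL-14 and 48.3% in sham. Neutrophil precursors had 0.326% in JVL-14 and 0.771% in sham, B cell precursors had 0.191% in JVL-14 and 0.162% in sham, and arachnoid barrier cells had 0.105% in JVL-14 and 0.0926% in sham. By these shares the order of the 7 classes was the same in both libraries, and the values of neighbouring classes did not overlap between libraries. In neutrophil precursors 5 cells held 83.9% of the class II UMIs in JVL-14 and 71.7% in sham. Their median cell gave 0.0470% in JVL-14 and 0.0406% in sham. The median B cell precursor gave 0.0603% in JVL-14 and 0.0573% in sham, so medians reversed the order of this pair. An unnamed cluster of 20 JVL-14 and 43 sham cells, led by the interferon-induced chemokines Cxcl9, Ccl12 and Cxcl10, had 3.84% in JVL-14 and 5.56% in sham. In that cluster 5 cells held 87.0% of the class II UMIs in JVL-14 and 51.9% in sham, and the median cell gave 0.557% in JVL-14 and 0.50% in sham. Fibroblasts, at 0.020% in JVL-14 and 0.0295% in sham, were near erythroid cells, which do not make class II and had 0.00691% in JVL-14 and 0.0232% in sham.

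Macrophages, dendritic cells, monocytes and B cells together held 89.4% of all class II UMIs in JVL-14 and 87.7% in sham. Macrophages alone held 50.3% in JVL-14 and 47.9% in sham, and dendritic cells held 28.3% in JVL-14 and 30.7% in sham, although they were only 2.51% of JVL-14 and 2.89% of sham cells. B cells held 7.01% in JVL-14 and 4.52% in sham, and they were 6.19% of JVL-14 and 3.49% of sham cells. Over all retained cells the 10 genes made up 0.838% of UMIs in JVL-14 and 0.892% in sham, a ratio of 0.939 (0.933 to 0.945).

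**Figure D1:**
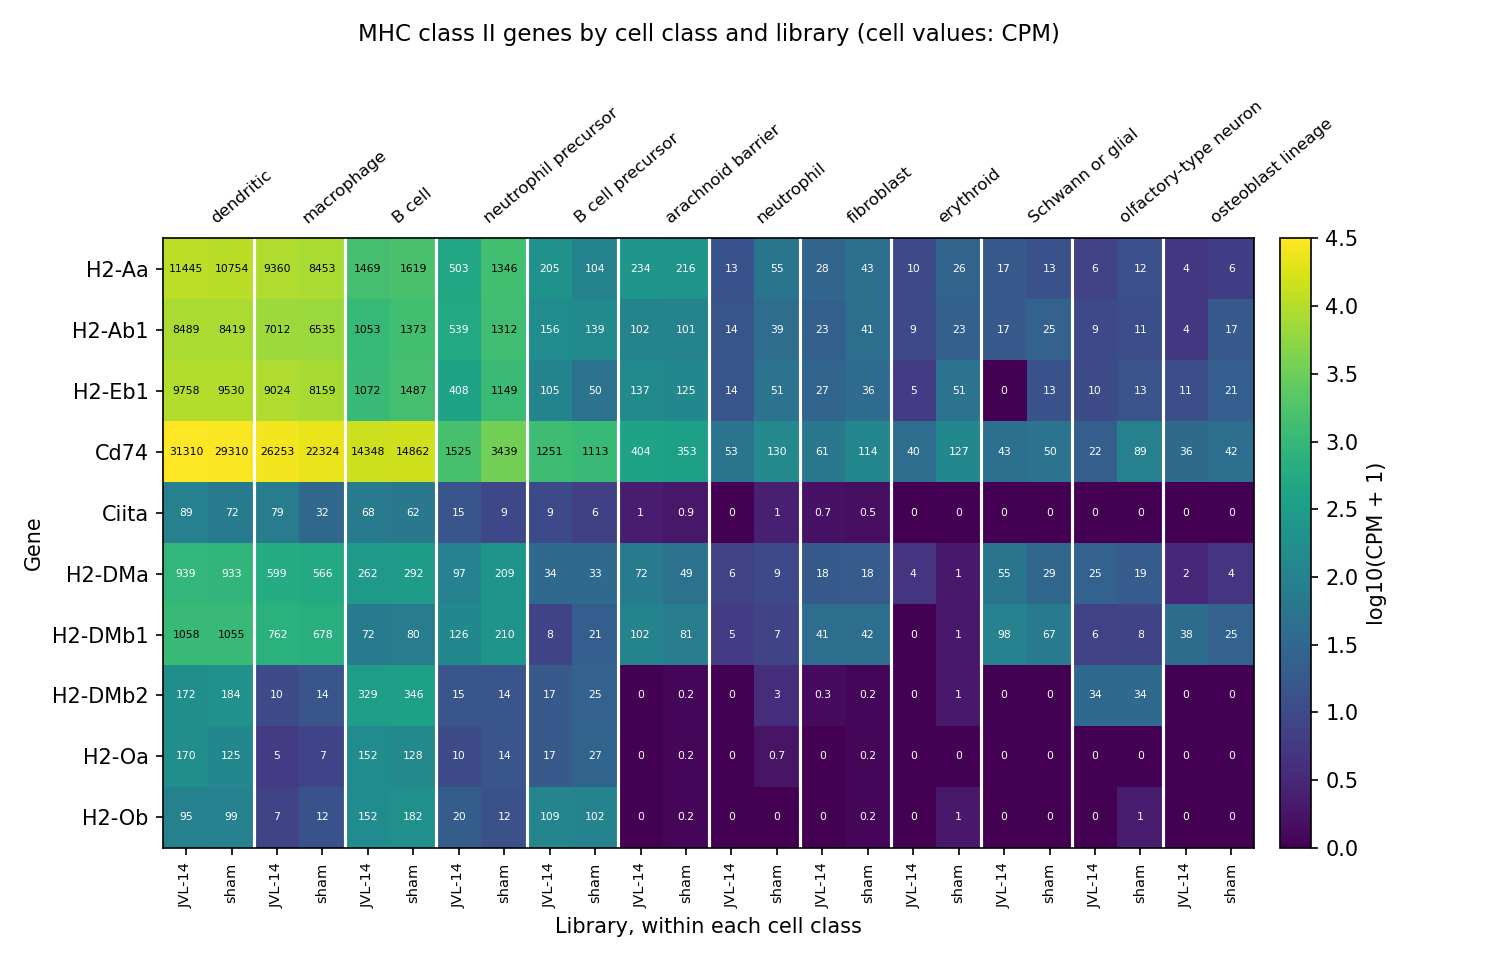
Level of each of the 10 genes (rows) in the 12 cell classes with at least 50 cells in both libraries (columns, JVL-14 left of sham), coloured by log10(CPM + 1), with the CPM printed in each cell. Classes run from the highest to the lowest class II share in sham, and H2-DMb2, H2-Oa and H2-Ob stand at 94.6 to 346 CPM in B cells and dendritic cells and at 4.94 to 14.3 CPM in macrophages.

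The classical chains H2-Aa, H2-Ab1 and H2-Eb1, which form the A molecule and the beta chain of the E molecule, and their chaperone Cd74 carried nearly all of these UMIs. H2-Aa stood at 11445 CPM in JVL-14 and 10754 CPM in sham dendritic cells, at 9360 CPM in JVL-14 and 8453 CPM in sham macrophages, and at 1469 CPM in JVL-14 and 1619 CPM in sham B cells. Cd74 stood at 31310 CPM in JVL-14 and 29310 CPM in sham dendritic cells, at 26253 CPM in JVL-14 and 22324 CPM in sham macrophages, and at 14348 CPM in JVL-14 and 14862 CPM in sham B cells. B cells were farther below both myeloid classes in H2-Aa than in Cd74. Cd74 made up 80.0% (79.1 to 80.8) of the UMIs of Cd74 and the 3 chains in JVL-14 B cells and 76.8% (76.0 to 77.6) in sham B cells. The same share was 50.8% in JVL-14 and 49.1% in sham macrophages, and 51.3% in JVL-14 and 50.5% in sham dendritic cells. The alpha chain gene of the E molecule, H2-Ea, had 0 UMIs in the macrophages of both libraries, and 0 UMIs in JVL-14 and 1 UMI in sham dendritic cells.

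The peptide editor DM used different beta chain genes in different classes. H2-DMa, its alpha chain, stood at 939 CPM in JVL-14 and 933 CPM in sham dendritic cells, at 599 CPM in JVL-14 and 566 CPM in sham macrophages, and at 262 CPM in JVL-14 and 292 CPM in sham B cells. H2-DMb2 made up 82.1% (75.9 to 87.3) of the UMIs of the beta chains H2-DMb1 and H2-DMb2 in JVL-14 B cells and 81.2% (75.6 to 85.9) in sham B cells. In macrophages this share was 1.28% (0.663 to 2.22) in JVL-14 and 2.06% (1.46 to 2.83) in sham, and in dendritic cells it was 14.0% (11.5 to 16.7) in JVL-14 and 14.9% (13.2 to 16.7) in sham. These 3 classes lay far apart, and the 2 libraries lay close together within each of them. The longest coding transcripts of these genes, in the GENCODE annotation of GRCm38, were 96.0% identical over 1045 aligned bases and 87.5% identical over 144 aligned bases within their last 300 bases, so reads that match both could be split or dropped, and their levels are uncertain to that degree.

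The DO genes H2-Oa and H2-Ob followed the B cell and dendritic classes. H2-Oa had 152 CPM in JVL-14 and 128 CPM in sham B cells, 170 CPM in JVL-14 and 125 CPM in sham dendritic cells, but 4.94 CPM in JVL-14 and 6.95 CPM in sham macrophages. H2-Ob had 152 CPM in JVL-14 and 182 CPM in sham B cells, 94.6 CPM in JVL-14 and 98.9 CPM in sham dendritic cells, and 7.41 CPM in JVL-14 and 12.3 CPM in sham macrophages. DO made up 31.4% (27.2 to 35.9) of the UMIs of DO and DM in JVL-14 B cells and 30.2% (26.4 to 34.1) in sham B cells, against 10.9% (9.28 to 12.6) in JVL-14 and 9.32% (8.32 to 10.4) in sham dendritic cells. In macrophages it made up 0.892% (0.50 to 1.47) in JVL-14 and 1.51% (1.12 to 1.98) in sham.

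B cell precursors carried H2-Ob with little of its partner H2-Oa. H2-Ob stood at 109 CPM (82.8 to 141) in JVL-14 and 102 CPM (75.1 to 134) in sham precursors, near its level in dendritic cells. H2-Oa stood at 16.9 CPM (7.74 to 32.1) in JVL-14 and 26.9 CPM (14.3 to 46.1) in sham precursors. H2-Ob thus made up 86.6% (76.0 to 93.7) of the DO UMIs in JVL-14 precursors and 79.0% (66.8 to 88.3) in sham precursors, against 72 of 144 DO UMIs (41.6% to 58.4%) in JVL-14 and 58.6% (50.9 to 66.0) in sham B cells. Innate lymphoid cells of type 2 had the opposite bias, with 6 UMIs of H2-Oa in JVL-14 and 25 in sham, and 0 of H2-Ob in both libraries. That class had 49 JVL-14 and 140 sham cells, and its H2-Oa level was 28.0 CPM in JVL-14 and 44.1 CPM in sham.

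**Figure D2:**
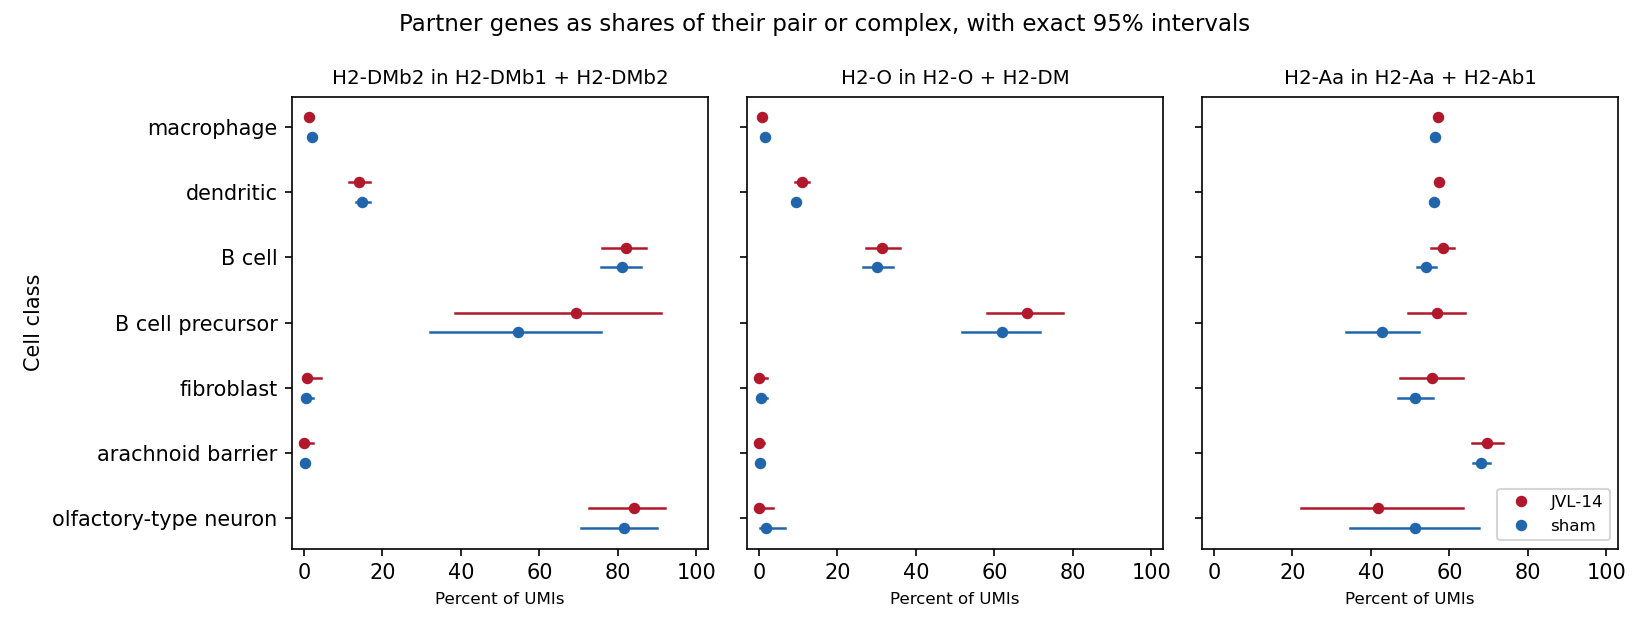
Share of UMIs given by H2-DMb2 among the DM beta chains (left), by H2-Oa and H2-Ob among DO and DM (middle) and by H2-Aa among H2-Aa and H2-Ab1 (right), in 7 cell classes (rows), JVL-14 above sham in each row. Points are shares in percent and bars exact 95% intervals, and in the left panel B cells, at 82.1% in JVL-14 and 81.2% in sham, lie far to the right of macrophages in both libraries.

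Outside the professional presenting cells, 3 patterns stood above the level in erythroid cells and neutrophils, whose class II UMIs serve as the background. Free RNA and leftover doublets were not told apart in this background. In erythroid cells 5 cells held 47.6% of the class II UMIs in JVL-14 and 80.4% in sham. In neutrophils 5 cells held 48.2% in JVL-14 and 67.5% in sham. Arachnoid barrier cells, the epithelium-like layer under the dura, had 234 CPM (211 to 259) of H2-Aa in JVL-14 and 216 CPM (204 to 229) in sham, from 377 UMIs in JVL-14 and 1168 UMIs in sham. When every cell was brought to 1000 UMIs, 15.2% of JVL-14 and 12.6% of sham arachnoid cells were expected to hold a UMI of H2-Aa, over 208 JVL-14 and 592 sham cells deep enough. The same shares were 1.2% in JVL-14 and 4.53% in sham erythroid cells, and 1.76% in JVL-14 and 3.73% in sham neutrophils. H2-Aa made up 69.7% (65.6 to 73.5) of the UMIs of H2-Aa and H2-Ab1 in JVL-14 and 68.1% (65.9 to 70.3) in sham arachnoid cells, above the 57.2% in JVL-14 and 56.4% in sham macrophages and the 57.4% in JVL-14 and 56.1% in sham dendritic cells. H2-DMb1 made up 9.68% of the class II UMIs in JVL-14 and 8.70% in sham arachnoid cells, against 1.43% in JVL-14 and 1.45% in sham macrophages. Ciita had only 2 UMIs in JVL-14 and 5 in sham arachnoid cells. The 7 macrophage markers summed to 26.1 CPM in JVL-14 and 89.1 CPM in sham arachnoid cells, with 1 of them at 0 in JVL-14, against 24106 CPM in JVL-14 and 26000 CPM in sham macrophages. The 5 arachnoid cells with most class II UMIs held 24.2% of them in JVL-14 and 15.5% in sham.

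H2-DMb1 was also present in other stromal classes. It stood at 41.3 CPM (34.4 to 49.2) in JVL-14 and 41.7 CPM (36.6 to 47.2) in sham fibroblasts, at 97.9 CPM in JVL-14 and 67.1 CPM in sham Schwann or glial cells, and at 37.9 CPM in JVL-14 and 24.9 CPM in sham osteoblast lineage cells. Neutrophils had 5.04 CPM in JVL-14 and 7.31 CPM in sham, and erythroid cells had 0 CPM in JVL-14 and 1.06 CPM in sham. At 1000 UMIs per cell, 3.89% of JVL-14 and 3.65% of sham fibroblasts were expected to hold a UMI of H2-DMb1, against 0.747% of JVL-14 and 0.732% of sham neutrophils. Cd74 did not stand out from neutrophils in this way, with 5.15% of JVL-14 and 5.56% of sham fibroblasts against 5.99% of JVL-14 and 7.76% of sham neutrophils. In neutrophils 5 cells held 59.5% of the Cd74 UMIs in JVL-14 and 66.9% in sham. The source of the Cd74 UMIs of fibroblasts was not tested.

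Olfactory-type neurons, which are no part of the dura, carried H2-DMb2 and the DM alpha chain H2-DMa above the background. H2-DMb2 stood at 33.7 CPM in both libraries, from 53 JVL-14 and 58 sham UMIs, while H2-DMb1 stood at 6.37 CPM in JVL-14 and 7.54 CPM in sham. At 1000 UMIs per cell, 3.03% of JVL-14 and 3.42% of sham neurons were expected to hold a UMI of H2-DMb2, against 0% of JVL-14 and 0.272% of sham neutrophils. H2-DMa stood at 25.5 CPM in JVL-14 and 19.1 CPM in sham neurons, and its share at 1000 UMIs was 2.47% in JVL-14 and 1.89% in sham neurons, against 0.442% in JVL-14 and 0.825% in sham neutrophils. The 7 B cell markers summed to 7.0 CPM in JVL-14 and 19.1 CPM in sham neurons, against 11496 CPM in JVL-14 and 10124 CPM in sham B cells.

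In macrophages, Ciita was higher in JVL-14 and the other 6 measured class II genes had ratios of 1.06 to 1.18. Ciita stood at 79.0 CPM (64.0 to 96.5) in JVL-14 and 31.6 CPM (25.2 to 39.3) in sham macrophages, from 96 UMIs in JVL-14 and 82 in sham, a ratio of 2.50 (1.84 to 3.39). A UMI of Ciita was found in 20.4% of 324 JVL-14 and 9.13% of 668 sham macrophages. At 1000 UMIs per cell the shares were 5.74% of 272 JVL-14 and 2.27% of 555 sham macrophages, and 0% in erythroid cells of both libraries. The 5 cells with most Ciita held 17.7% of its UMIs in JVL-14 and 17.1% in sham. Among the chains, H2-Aa had a ratio of 1.11 (1.08 to 1.13), H2-Eb1 1.11 (1.08 to 1.13), H2-Ab1 1.07 (1.05 to 1.10) and Cd74 1.18 (1.16 to 1.19). For DM, H2-DMa had a ratio of 1.06 (0.966 to 1.16) and H2-DMb1 1.12 (1.04 to 1.22). Whether Ciita was also higher outside macrophages was not settled by its counts. Its ratios in dendritic cells and B cells, given below, had intervals that held 1. Monocytes, too few to compare, had 17 UMIs of Ciita among 326621 in JVL-14 and 18 among 895120 in sham. In neutrophil precursors Ciita was below the limit given next, with a ratio of 1.69 (0.809 to 3.73). Neutrophils had 0 UMIs of Ciita in JVL-14 and 2 in sham.

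A gene counted as measured with at least 20 UMIs and a mean of at least 20 CPM in a class, and as called with a ratio of at least 1.5 or at most 0.667 whose interval left out 1. In macrophages 7 of the 10 genes were measured, 7 were higher in JVL-14 and 1, Ciita, was called higher. Of all 5200 genes measured there, 3.77% were called higher, 4.25% were called lower and 49.3% had a log2 ratio above 0. The median log2 ratio of the 7 was 0.15, against -0.00 over all measured genes. H2-DMb2, H2-Oa and H2-Ob were below the limit, with 12, 6 and 9 UMIs in JVL-14 and 37, 18 and 32 in sham, and their ratios of 0.692, 0.711 and 0.60 had intervals that held 1.

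The macrophages came from 2 clusters, and by number of cells different ones held most of the class in each library. Cluster 3, led by Ccl3, Ccl4 and Cx3cr1, held 168 JVL-14 and 293 sham cells, and cluster 21, led by Cd209f, Ccl8 and Pf4, held 156 JVL-14 and 375 sham cells. Most class II UMIs of the macrophages lay in cluster 3 in both libraries, with 58314 of 64543 in JVL-14 and 104933 of 121229 in sham. Within cluster 3 the class II share was 5.86% in JVL-14 and 5.30% in sham, a ratio of 1.11 (1.09 to 1.12), and Ciita stood at 93.4 CPM in JVL-14 and 38.9 CPM in sham, a ratio of 2.40 (1.76 to 3.29). Within cluster 21 the share was 2.83% in JVL-14 and 2.66% in sham, a ratio of 1.06 (1.03 to 1.10), and Ciita had only 3 UMIs in JVL-14 and 5 in sham. Levels were spread widely over cells. The median cell of cluster 3 gave 6.18% of its UMIs to class II in JVL-14 and 5.50% in sham, while the lowest 10% of cells gave at most 0.145% in JVL-14 and 0.0744% in sham. In cluster 21 the median cell gave 0.722% in JVL-14 and 0.572% in sham, and the top 10% gave at least 7.47% in JVL-14 and 7.33% in sham. Among 7 genes of resident border macrophages, 7 were lower in JVL-14 and 2 were called lower. These were Lyve1, at 60.1 CPM in JVL-14 and 140 CPM in sham, and Cd209f, at 204 CPM in JVL-14 and 425 CPM in sham, while Mrc1 and Pf4 had ratios of 0.914 and 0.946. Pf4 was higher in JVL-14 within cluster 21, with a ratio of 1.19 (1.12 to 1.27). The 6 monocyte markers summed to 783 CPM in JVL-14 and 787 CPM in sham macrophages, and 2 of them were higher in JVL-14. Of these, Ccr2 stood at 242 CPM in JVL-14 and 145 CPM in sham, and Plac8 at 2.47 CPM in JVL-14 and 9.26 CPM in sham. The single genes in these sentences were named after their values were seen, and the part of these differences in the Ciita result was not tested. The median macrophage had 2931 UMIs in JVL-14 and 2369 in sham.

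**Figure D3:**
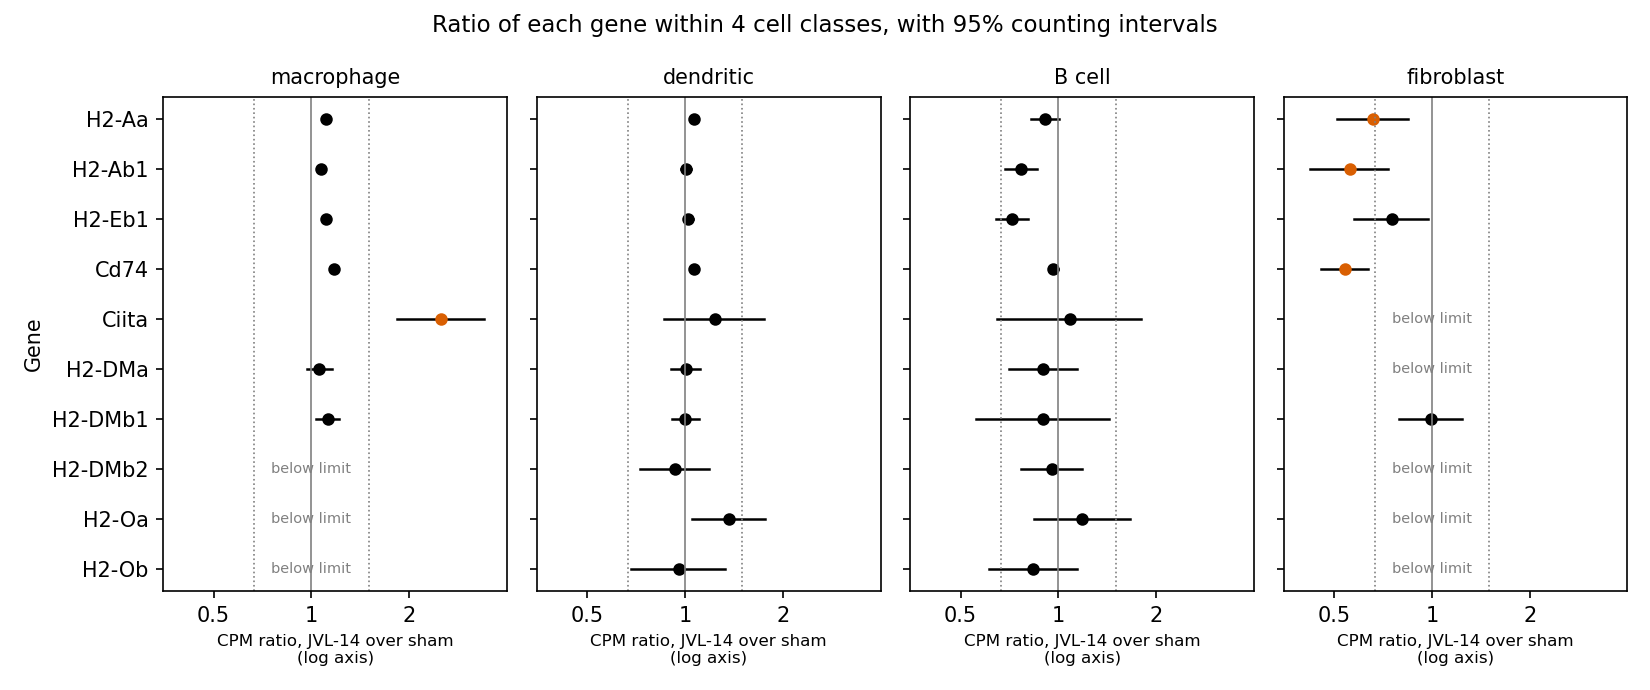
Ratio of CPM, JVL-14 over sham, of each gene (rows) in macrophages, dendritic cells, B cells and fibroblasts, on a log axis. Points are ratios, bars 95% counting intervals, dotted lines the limits of 1.5 and 0.667, orange points the called genes, and genes below the measurement limit have no point. Ciita at 2.50 in macrophages and H2-Aa, H2-Ab1 and Cd74 at 0.660, 0.558 and 0.541 in fibroblasts lie outside the dotted lines.

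In dendritic cells the class II genes were close in the 2 libraries. The class held 62 JVL-14 and 135 sham cells and was led by Cd209a, Ccl5, Ccl22 and Ccl17. H2-Ab1 stood at 8489 CPM in JVL-14 and 8419 CPM in sham, a ratio of 1.01 (0.975 to 1.04), and H2-DMb1 at 1058 CPM in JVL-14 and 1055 CPM in sham, a ratio of 1.0 (0.910 to 1.11). H2-Oa was the farthest from 1, at 170 CPM (138 to 207) in JVL-14 and 125 CPM (106 to 145) in sham, a ratio of 1.36 (1.05 to 1.77), with 45.4% of its JVL-14 UMIs and 22.5% of its sham UMIs in 5 cells. Ciita stood at 89.3 CPM in JVL-14 and 72.4 CPM in sham, a ratio of 1.23 (0.859 to 1.76). All 10 genes were measured, 8 were higher in JVL-14, 2 were lower and 0 were called, where 4.12% of 4807 measured genes were called higher, 5.66% were called lower and 47.7% had a log2 ratio above 0. Only 2 of the 10 were higher when cells needed at least 500 genes, so the direction turned with that filter. A share of 85.5% of JVL-14 and 82.2% of sham dendritic cells gave over 1% of their UMIs to class II.

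In B cells the class II chains H2-Eb1 and H2-Ab1 were lower in JVL-14, though not called, while most measured genes were higher there. H2-Eb1 stood at 1072 CPM (981 to 1170) in JVL-14 and 1487 CPM (1388 to 1592) in sham, a ratio of 0.721 (0.645 to 0.806). H2-Ab1 stood at 1053 CPM (963 to 1150) in JVL-14 and 1373 CPM (1278 to 1473) in sham, a ratio of 0.767 (0.684 to 0.860). H2-Aa had a ratio of 0.908 (0.821 to 1.003), whose interval held 1, and Cd74 of 0.965 (0.935 to 0.997). The intervals of H2-Eb1 and H2-Ab1 lay below that of Cd74. H2-DMa, H2-DMb1, H2-DMb2 and H2-Ob also had ratios below 1, from 0.836 to 0.952, with intervals that held 1, and Ciita at 1.08 (0.649 to 1.80) and H2-Oa at 1.18 (0.842 to 1.66) had ratios above it. All 10 genes were measured, 2 were higher, 8 were lower and 0 were called, where 7.79% of 5248 measured genes were called higher, 2.74% were called lower and 66.6% had a log2 ratio above 0. The median log2 ratio was -0.15 for the 10 and 0.17 for all measured genes. The 7 B cell markers were all higher in JVL-14, with a sum of 11496 CPM in JVL-14 and 10124 CPM in sham, and the monocyte markers summed to 564 CPM in JVL-14 and 1184 CPM in sham, whose part was not tested. The median B cell gave 1.79% of its UMIs to class II in JVL-14 and 2.03% in sham.

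**Figure D4:**
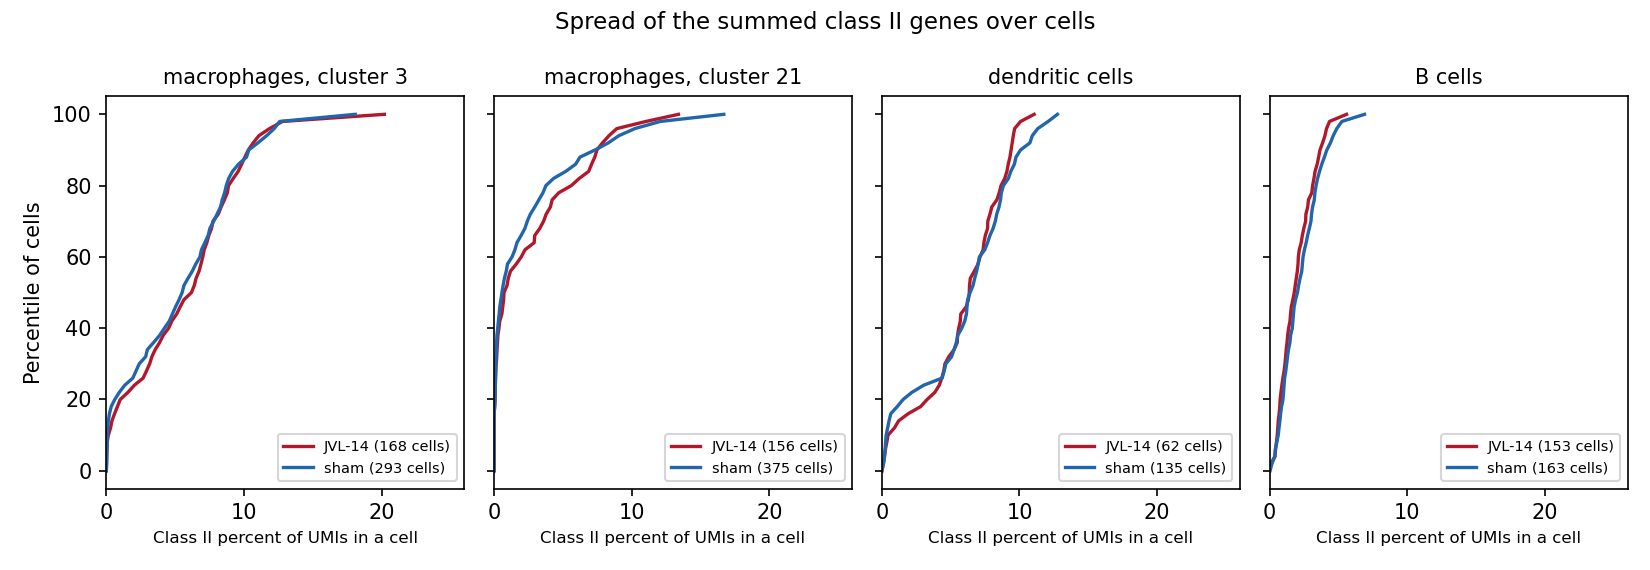
Percent of a cell's UMIs given by the 10 genes (horizontal axis) against the percentile of cells (vertical axis), for the 2 macrophage clusters, dendritic cells and B cells, with JVL-14 in red and sham in blue. The curves of the libraries lie close together next to the spread within each, and the lowest 40% of cluster 21 cells reach at most 0.351% in JVL-14 and 0.263% in sham.

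B cell precursors had low class II levels, with 2 genes called higher in JVL-14. H2-Aa stood at 205 CPM (168 to 247) in JVL-14 and 104 CPM (76.9 to 137) in sham, a ratio of 1.98 (1.40 to 2.82), with 42.2% of its JVL-14 and 54.0% of its sham UMIs in 5 cells. H2-Eb1 stood at 105 CPM (79.6 to 137) in JVL-14 and 49.7 CPM (31.9 to 74.0) in sham, a ratio of 2.12 (1.29 to 3.57), with 64.3% of its JVL-14 and 45.8% of its sham UMIs in 5 cells. Cd74, at 1251 CPM in JVL-14 and 1113 CPM in sham, and H2-Ab1, at 156 CPM in JVL-14 and 139 CPM in sham, had a ratio of 1.12 each. Of 8 measured genes 6 were higher and 2 were called higher, where 3.39% of 5568 measured genes were called higher, 5.37% were called lower and 46.2% had a log2 ratio above 0. Mature B cell markers summed to 6434 CPM in JVL-14 and 7367 CPM in sham precursors.

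In fibroblasts 5 of the 10 genes were measured, 5 were lower in JVL-14 and 3 were called lower, where 1.7% of 6344 measured genes were called higher, 3.45% were called lower and 54.5% had a log2 ratio above 0. Cd74 stood at 61.4 CPM (52.9 to 70.9) in JVL-14 and 114 CPM (105 to 123) in sham, a ratio of 0.541 (0.457 to 0.637). H2-Ab1 had a ratio of 0.558 (0.421 to 0.733), H2-Aa 0.660 (0.511 to 0.847) and H2-Eb1 0.753 (0.577 to 0.974), while H2-DMb1 had 0.991 (0.793 to 1.23). Few cells held much of the Cd74, with 5 cells holding 41.9% of its UMIs in JVL-14 and 55.1% in sham. Without the 5 cells with most class II UMIs per library, 3 genes were still measured, with a median log2 ratio of -0.10. The median was -0.59 over the 5 genes measured with those cells, so the medians cover different genes. Macrophage markers moved in the same direction, with 29.1 CPM in JVL-14 and 79.9 CPM in sham fibroblasts, and their part was not tested. Without doublet removal the median turned to 0.33.

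Neutrophils and neutrophil precursors showed the same direction from few cells. In neutrophils 4 genes were measured and 4 were called lower, where 8.88% of 3222 measured genes were called higher, 3.2% were called lower and 61.7% had a log2 ratio above 0. There Cd74 stood at 52.9 CPM in JVL-14 and 130 CPM in sham, with 59.5% of its JVL-14 and 66.9% of its sham UMIs in 5 cells. In neutrophil precursors 6 genes were measured and 6 were called lower, where 10.7% of 5449 measured genes were called higher, 14.4% were called lower and 53.6% had a log2 ratio above 0. There 5 cells held 83.9% of the class II UMIs in JVL-14 and 71.7% in sham. That class was also led by genes of dividing cells and carried markers of other types, in unlike amounts in the libraries. Its macrophage markers summed to 55.6 CPM in JVL-14 and 984 CPM in sham. The B cell precursor markers summed to 2948 CPM in JVL-14 and 1389 CPM in sham, and the B cell markers to 1433 and 641 CPM. Erythroid markers summed to 246 CPM in JVL-14 and 8977 CPM in sham. The part of this make-up in the called genes was not tested. T cells, with 28 JVL-14 and 42 sham cells, were too few to compare, and 5 cells held 96.6% of their class II UMIs in JVL-14.

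In the other compared classes few members were measured. All 6 measured in arachnoid barrier cells were higher in JVL-14 and 0 were called, where 3.13% of 6040 measured genes were called higher, 3.99% lower, and 56.4% were above 0. H2-DMa had the highest ratio there, 1.48 (1.18 to 1.85), from 72.0 CPM in JVL-14 and 48.7 CPM in sham. The class II share was higher in JVL-14 in 1 of the 2 arachnoid clusters, with 0.271% in JVL-14 and 0.151% in sham, and lower in the other, with 0.0790% in JVL-14 and 0.0869% in sham. In the former cluster 5 cells held 53.0% of the class II UMIs in JVL-14 and 36.2% in sham. In the latter 5 cells held 32.2% in JVL-14 and 18.1% in sham. Of 3 members measured in olfactory-type neurons, 1 was called lower, Cd74, at 21.6 CPM in JVL-14 and 88.8 CPM in sham, where 3.63% of 6609 measured genes were called higher, 4.72% lower, and 51.4% were above 0. In these neurons 5 cells held 38.2% of the Cd74 UMIs in JVL-14 and 67.3% in sham. In erythroid cells H2-Eb1 and Cd74 were measured and both called lower, where 88% of 1387 measured genes were called higher, 3.53% lower, and 92.7% were above 0. Of 3 members measured in Schwann or glial cells 0 were called, against 11.3% of 4217 genes called higher, 9.32% lower, and 54.7% above 0. Of 2 measured in osteoblast lineage cells 0 were called, against 3.75% of 6374 genes called higher, 5.04% lower, and 50.4% above 0. Over all retained cells 7 members were measured, 1 was higher, 6 were lower and 0 were called. There 5.04% of 6545 genes were called higher, 5.03% lower, and 45.2% were above 0. Ciita, H2-Oa and H2-Ob were below the measurement limit over all retained cells, and each was higher in JVL-14. Ciita had 235 UMIs in JVL-14 and 259 in sham, a ratio of 1.682 (1.404 to 2.015). H2-Ob had a ratio of 1.197 (1.009 to 1.418) and H2-Oa of 1.181 (0.991 to 1.405), whose interval held 1.

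The genes around class II presentation were followed in lists of the pathway. For peptide supply and processing, which covers the cathepsins and other endosomal enzymes, all 10 listed genes were measured in macrophages, 3 were higher, 7 were lower and 0 were called. Cathepsin S, the protease that trims Cd74 in these cells, was among them, with 2869 CPM in JVL-14 and 2732 CPM in sham for Ctss. In dendritic cells 2 of the 10 were higher and 8 lower, with Ctsl called higher, and Lgmn and Ctsd called lower. Of all 4807 genes measured there, 4.12% were called higher and 5.66% lower. Ctsl stood at 165 CPM in JVL-14 and 94.2 CPM in sham, with 89.4% of its JVL-14 and 52.1% of its sham UMIs in 5 cells. A UMI of Ctsl was found in 22.6% of JVL-14 and 32.6% of sham dendritic cells. The macrophage markers of this class summed to 928 CPM in JVL-14 and 1862 CPM in sham, and their part was not tested. Lgmn, the asparaginyl endopeptidase, stood at 87.6 CPM in JVL-14 and 176 CPM in sham, and the aspartic protease Ctsd at 70.1 CPM in JVL-14 and 112 CPM in sham. In B cells 4 of the 10 were higher and 6 lower, and Sppl2a, the intramembrane protease that removes the last membrane fragment of Cd74, was called higher at 82.3 CPM in JVL-14 and 33.9 CPM in sham. Lamp1 and Ctsb were called lower there, where 7.79% of 5248 measured genes were called higher and 2.74% lower.

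Of 18 listed genes for the transcription of class II, 9 were measured in macrophages and 1 was called. It was Ifngr2, a chain of the interferon gamma receptor, whose signal induces Ciita, at 197 CPM in JVL-14 and 123 CPM in sham, a ratio of 1.6 (1.35 to 1.90). Irf1, which acts on the Ciita promoter downstream of that receptor, stood at 171 CPM in JVL-14 and 236 CPM in sham, which was lower and not called. In B cells 13 were measured and 1 was called, Socs1, an inhibitor of Jak kinases, at 40.1 CPM in JVL-14 and 16.0 CPM in sham. It had only 19 UMIs in JVL-14 and 9 in sham, a ratio of 2.50 (1.08 to 6.27). In fibroblasts 11 were measured and 2 were called lower, Ifngr1 at 112 CPM in JVL-14 and 176 CPM in sham, and Jak2 at 17.5 CPM in JVL-14 and 29.6 CPM in sham. In dendritic cells 12 were measured and 0 were called. Over all measured genes, 3.77% were called higher and 4.25% lower in macrophages, and 7.79% higher and 2.74% lower in B cells. In fibroblasts 1.7% were called higher and 3.45% lower, and in dendritic cells 4.12% higher and 5.66% lower.

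Of 7 listed genes for surface turnover, 6 were measured in dendritic cells, 5 were lower in JVL-14 and 4 were called lower. Of all 4807 genes measured there, 4.12% were called higher, 5.66% were called lower and 47.7% had a log2 ratio above 0. Marchf1, the ubiquitin ligase that sends class II and Cd86 for degradation, stood at 66.6 CPM in JVL-14 and 101 CPM in sham. Its ratio was 0.658 (0.446 to 0.951), from 38 UMIs in JVL-14 and 130 in sham. The tetraspanins Cd63, Cd81 and Cd9 stood at 40.3, 77.1 and 203 CPM in JVL-14 and at 139, 226 and 317 CPM in sham. Among costimulation genes there, Cd86 stood at 73.6 CPM in JVL-14 and 117 CPM in sham and Ccr7 at 105 CPM in JVL-14 and 175 CPM in sham, both called lower. Beside these, the macrophage markers of the dendritic class summed to 928 CPM in JVL-14 and 1862 CPM in sham, and the migratory dendritic markers, which include Ccr7, to 771 CPM in JVL-14 and 1427 CPM in sham, and their part was not tested. For Ccr7, 5 cells held 98.3% of the UMIs in JVL-14 and 64.4% in sham, and for Cd63 87.0% in JVL-14 and 41.3% in sham. For Cd81, 5 cells held 65.9% in JVL-14 and 33.3% in sham. In macrophages Cd9 was called higher at 200 CPM in JVL-14 and 98.0 CPM in sham. Cd209a, a lectin of dendritic cells, was called lower in macrophages at 14.0 CPM in JVL-14 and 34.7 CPM in sham, with 76.5% of its JVL-14 and 74.4% of its sham UMIs in 5 cells. In B cells the costimulatory receptor Cd40 was called higher at 131 CPM in JVL-14 and 82.0 CPM in sham, as was the adhesion molecule Icam1 at 46.4 CPM in JVL-14 and 19.6 CPM in sham.

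Across the 12 compared classes of both libraries, which give 24 profiles, each member was set against the sum of the other 9 by Pearson's r of log2(CPM + 1). H2-Ab1 was closest to the rest, with r = 0.987, and H2-DMb2 and H2-DMb1 were farthest, with r = 0.724 and 0.762. Among 8064 other genes, those most like the summed members were Phf11b (r = 0.969), Cd83 (r = 0.968), Pld4 (r = 0.941), Gpr183 (r = 0.926), Rgs1 (r = 0.924), Kmo (r = 0.921), Lat2 (r = 0.919) and Irf5 (r = 0.917). Cd83, which protects surface class II from Marchf1, stood at 671 CPM in JVL-14 and 470 CPM in sham macrophages, at 399 CPM in JVL-14 and 425 CPM in sham dendritic cells, and at 281 CPM in JVL-14 and 285 CPM in sham B cells. These correlations describe profiles that share libraries and classes, and no p is given.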

How the data were processed

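The authors deposited raw UMI counts per gene and filtered barcode, written by Cell Ranger 8.0.0 per the file headers, with mm39 as the genome build that the submitters' processing notes name. The gene annotation and the use of strand are not given in the sources used here, and Dexi, Brd2 and other genes overlap Ciita, H2-DMa, H2-Oa and H2-Eb1 on the other strand. Barcodes were dropped for having under 200 genes (244 JVL-14, 266 sham) or a mitochondrial share over 10% (152 JVL-14, 278 sham). Scrublet marked 0.230% of JVL-14 and 0.121% of sham barcodes, below the 0.5% taken as working, so the top 5% of its scores were removed (137 JVL-14, 279 sham). With scanpy 1.11.5, each cell was brought to 10000 counts on a log scale, and 2000 variable genes without the members, 30 components, 15 neighbours and Leiden resolution 1 gave 36 clusters. Clusters were named from markers of 32 types, with 4 dendritic lists joined, and 5 stayed unnamed. Counts were summed per class and library. A class was compared if both libraries held 50 or more of its cells. Ratios carry exact conditional binomial 95% intervals, levels exact Poisson and shares exact Clopper-Pearson ones, and 0.5 was added to counts for log2 ratios. Shares of cells at 1000 UMIs are exact expectations. Ratio intervals were tested on simulated data. The members, lists, markers and rules were chosen with earlier results of these data known. Named were all members in compared classes, the 8 genes most like them, and up to 4 called genes with the largest log2 ratio of each list in macrophages, dendritic cells, B cells and fibroblasts. Ctss, Irf1, Lyve1, Cd209f, Mrc1, Pf4, Ccr2 and Plac8 were named in addition, after their values were seen.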

Additional observations from a re-analysis of the deposited data

How the results depend on the processing

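Ciita in macrophages was higher in JVL-14 under all 12 alternatives, with a log2 ratio between 1.04 and 1.49. Of the main values recomputed under an alternative, 71 held, 34 moved and 1 reversed, and of the single-gene values 313 held, 50 moved and 11 reversed. With at least 500 genes per cell, the macrophage median log2 ratio was 0.0589, the dendritic median was -0.0740 with 2 members higher, Cd74 and H2-Aa in dendritic cells had -0.00143 and -0.0264, and in fibroblasts the median was -0.0548 with 3 members higher and H2-Aa at 0.0422. With at most 5% mitochondrial UMIs, the macrophage median was 0.11, the dendritic median 0.24, and 1 member was higher in B cells. Without doublet removal, the fibroblast median was 0.33 with 4 members higher, and Cd74, H2-Aa, H2-Ab1 and H2-Eb1 there had 0.27, 0.42, 0.33 and 0.50. No dendritic value was available in that setting, since dendritic cells joined a monocyte cluster. As a mean over cells, the macrophage median was 0.19, the dendritic median -0.0408 with 4 members higher and H2-Aa at -0.0190, and 1 member was higher in B cells and 1 in fibroblasts. With cells scaled to 1000 UMIs, the macrophage median was 0.18, the dendritic median -0.0717 with 4 members higher, and 1 member was higher in fibroblasts. Without the 5 cells with most class II UMIs per library, 1 member was higher in B cells and 5 in dendritic cells, and in fibroblasts the median was -0.10, while H2-Ab1 at 0.0117 and H2-Eb1 at 0.53 were then below the measurement limit. Averaged within clusters, the macrophage median was 0.11, and 2 members were higher in fibroblasts, with H2-Eb1 at 0.0330. With no filter on low values, 2 members were higher in fibroblasts. Macrophages, dendritic cells, monocytes and B cells together held 90.8% of class II UMIs in JVL-14 and 91.1% in sham with at least 500 genes, 86.1% in JVL-14 and 85.8% in sham with at most 5% mitochondrial UMIs, 84.6% in JVL-14 and 84.1% in sham without doublet removal, 87.9% in JVL-14 and 85.8% in sham with the members among the clustering genes, and 88.5% in JVL-14 and 87.3% in sham at resolution 2. Beyond the fewer cells or genes that an alternative leaves, the cause was not tested. With 1 library per group, no library could be left out. No paired analysis was possible because each group has 1 library and no test was made.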
